A study of Mus musculus with 4 samples.

Results

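The population described here consists of hepatic T cells that carried RNA of *Fasl* or *Klrk1* and none of *Ifng*, *Il17a*, *Il17f*, *Foxp3* or *Mki67*. Its members were chosen by raw counts in each cell: at least 1 unique molecular identifier (UMI, which marks 1 captured RNA molecule) of *Fasl* or *Klrk1*, at least 1 of *Cd3e*, *Cd3d* or *Cd3g*, and 0 of the 5 genes named above, of *Siglech* and of *Lyz2*. The rule found 1490 cells among the 28018 that passed the cell filters. The library labelled WT held 904 of them among 10556 cells, and the library labelled dKO held 586 among 17462. The members are called Fasl or Klrk1 T cells. The 10 genes of the gates just named together with *Fasl* and *Klrk1* were used to choose the cells, so their values are given as a description.

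Hepatic CD4+ T cells were sorted from male mice with diet-induced MASH and captured in droplets for 5′ RNA and T cell receptor (TCR) sequencing. The dKO mice carried *Nr4a1* fl/fl and *Nr4a2* fl/fl alleles with *Cd4Cre*, a Cre driver that is active in all conventional αβ T cells as they develop and is not restricted to the population described here. Mice of both genotypes were fed CD, a choline-deficient diet with 60 kcal% fat and 0.1% methionine, for 8 weeks. Each genotype gave 1 library pooled from 2 mice, and the cells of the pooled mice cannot be told apart, so no test between genotypes was possible and none was run. Values in parentheses after a level, share or ratio are exact 95% intervals, which cover counting error alone. Where a share is 0, the limit printed is instead the share that 3 counts would give. Levels are CPM, UMIs of a gene scaled to a class total of 1e6, summed over the cells of a class in 1 library, and ratios of CPM are given as log2.

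Fas ligand, the product of *Fasl*, is a membrane protein of the TNF family that kills or restrains cells by engaging the death receptor Fas. *Klrk1* encodes NKG2D, an activating receptor of natural killer (NK) cells, of activated CD8+ T cells and of some other T cells, which binds stress-induced ligands and signals through the adaptor DAP10 (*Hcst*) and, in mice, also through DAP12 (*Tyrobp*). Cytotoxic lymphocytes kill by Fas ligand and by the release of granules that hold perforin (*Prf1*) and granzymes. In the liver such programs are found in NK cells, CD8+ T cells, invariant natural killer T (NKT) cells and a share of CD4+ T cells. *Fasl* (ENSMUSG00000000817) lies on the minus strand at chr1:161780689-161788495 of GRCm38, the assembly also called mm10. *Klrk1* (ENSMUSG00000030149) lies on the minus strand at chr6:129610323-129623864, in the natural killer gene complex between *Klrd1* (chr6:129591782-129598775) and *Klrc1* (chr6:129666015-129678973). The GENCODE annotation has no other gene that overlaps *Fasl* or *Klrk1*.

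The rule did not use receptor sequences, and the receptors of the members fell into a few kinds that the results below return to. The sequences that follow are the nucleotides of the third complementarity determining region (CDR3) as deposited, 5′ to 3′, in lower case where the base matches the end of the germline V or the start of the germline J segment and in capitals where it matches neither. The first 4 are α chains that join TRAV11 (*Trav11*, chr14:53519303-53519859) to TRAJ18 (*Traj18*, chr14:54200777-54200842), the pair that defines the receptor of invariant NKT cells, and they are the most frequent ones among members.
invariant α 1 (12 members of 40 cells): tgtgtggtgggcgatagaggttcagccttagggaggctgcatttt
invariant α 2 (10 members of 31 cells): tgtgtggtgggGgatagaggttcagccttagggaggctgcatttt
invariant α 3 (5 members of 21 cells): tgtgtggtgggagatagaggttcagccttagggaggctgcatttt
invariant α 4 (3 members of 11 cells): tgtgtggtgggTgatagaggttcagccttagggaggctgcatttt
Each of these 4 occurred in both libraries. They have the same length of 45 bases and at most 1 base that is not germline.

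The next sequences belong to some of the clonotypes that held at least 3 members. A clonotype is a set of cells of 1 library with the same V genes and CDR3 nucleotides in both chains. They are shown because some of these clonotypes held *Gzmk*, the gene of granzyme K, in nearly all of their cells and others in none.
WT clone 1 α, TRAV4-4-DV10 with TRAJ34: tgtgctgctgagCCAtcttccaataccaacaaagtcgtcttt
WT clone 1 β, TRBV31 with TRBJ2-3: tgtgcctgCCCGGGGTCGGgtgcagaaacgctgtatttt
WT clones 3 and 4 β, TRBV13-1 with TRBJ2-5: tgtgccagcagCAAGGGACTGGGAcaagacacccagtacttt
dKO clones 1 and 4 β, TRBV19 with TRBJ2-7: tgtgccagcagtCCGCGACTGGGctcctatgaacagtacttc
dKO clones 2 and 5 β, TRBV31 with TRBJ1-1: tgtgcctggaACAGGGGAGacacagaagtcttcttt
dKO clone 1 α, TRAV16N with TRAJ6: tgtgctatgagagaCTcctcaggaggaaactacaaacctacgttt
dKO clone 4 α, TRAV7-4 with TRAJ12: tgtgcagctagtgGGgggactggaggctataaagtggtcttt
The α chains of clones that shared a β chain differed. In the library labelled WT, 12 of the 68 cells with the β chain of clones 3 and 4 had both α chains. In the library labelled dKO, 4 of the 71 cells with the β chain of clones 1 and 4 had both, and 0 of the 74 cells with that of clones 2 and 5.

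The library labelled WT held 23437516 UMIs after filtering and the library labelled dKO 37794986, with medians of 1679 and 1685 UMIs per cell. Over all cells, *Nr4a1* was at 725 CPM in the library labelled WT, against 1660 CPM in the library labelled dKO, and *Nr4a2* was at 183 and 306 CPM. Both targeted genes were thus higher under the dKO label. The counts do not separate exons and include RNA of a floxed allele, so these values cannot check the labels, and the libraries are named by their labels throughout. The libraries shared 245 cell barcodes, 1 of them a member in each. Members were deeper than the cytokine-negative T cells they are compared with, at a median of 1869.5 against 1500 UMIs in the library labelled WT and 1519.5 against 1233 in the library labelled dKO. Ribosomal protein genes took 20% and 21.5% of the members' UMIs.

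Fasl or Klrk1 T cells made up 8.56% (8.04 to 9.11) of the filtered cells in the library labelled WT, against 3.36% (3.09 to 3.63) in the library labelled dKO. Among cells with a *Cd3* UMI and no *Siglech* or *Lyz2* UMI the shares were 12.1% (11.4 to 12.9) and 5.13% (4.73 to 5.55). Among those of them without cytokine, *Foxp3* or *Mki67* UMIs they were 18.8% (17.7 to 19.9) and 8.56% (7.91 to 9.25). The library labelled dKO held 3184 cells with *Foxp3*, against 478 in the library labelled WT. These cells enter the first denominators and not the last. Cytokine-negative cells without *Fasl* or *Klrk1* still held RNA of 5 regulatory T cell markers. It summed to 4800 CPM in the library labelled dKO, against 980 CPM in the library labelled WT. The part of regulatory T cells without a *Foxp3* UMI in the last shares was not tested. With every cell cut down by random draws to 1000 UMIs, 12.8% (11.8 to 13.9) and 7.07% (6.38 to 7.82) of the cytokine-negative T cells had a *Fasl* or *Klrk1* UMI, over 3943 and 5019 cells. The order of the libraries was thus the same at equal depth, and no share here was tested against the spread between mice.

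Most members stood at the edge of the gate. They had a single UMI of the 2 genes together in 636 of 904 cells (70.4%) of the WT label and 449 of 586 (76.6%) of the dKO label. *Fasl* without *Klrk1* was found in 600 cells (66.4%, 63.2 to 69.4) and 400 cells (68.3%, 64.3 to 72.0), *Klrk1* without *Fasl* in 194 (21.5%, 18.8 to 24.3) and 149 (25.4%, 21.9 to 29.2), and both in 110 (12.2%, 10.1 to 14.5) and 37 (6.31%, 4.48 to 8.60). These sets are called Fasl-only, Klrk1-only and double-positive cells. A cell with a single UMI of one gene may hold unsampled RNA of the other. Just outside the gate, 531 and 181 cells failed for *Ifng* alone, 272 and 118 of them with 1 *Ifng* UMI. Another 75 and 36 cells failed for *Mki67* alone and 30 and 64 for *Foxp3* alone.

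The level at which free RNA could place these genes in a droplet was read from plasmacytoid dendritic cells, taken as cells with *Siglech* and no *Cd3* UMI. At 1000 UMIs per cell, 0.373% (0.0769 to 1.09) and 0.459% (0.251 to 0.769) of them had a *Fasl* or *Klrk1* UMI. A *Klrk1* UMI was found in 0.124% and 0.427%, beside 4.26% and 2.25% of all cytokine-negative T cells. For *Fasl* the shares were 0.248% and 0.0328%, beside 9.51% and 5.1%. The median depth of these dendritic cells was 1537 UMIs in the library labelled WT, against 2901 in the library labelled dKO. Of myeloid cells, with *Lyz2* and no *Cd3* UMI, 1.79% (0.37 to 5.13) and 1.3% (0.424 to 3.01) had a *Fasl* or *Klrk1* UMI at 1000 UMIs per cell. Cells with *Ifng* had the highest share among the T cell classes, 22.7% (20.4 to 25.1) and 16.6% (13.7 to 19.8). Cells with *Foxp3* had 8.25% (5.82 to 11.3) and 1.52% (1.09 to 2.07), and cells with *Il17a* or *Il17f* and no *Ifng* had 2.61% (0.541 to 7.43) and 5.38% (2.97 to 8.87). The Il17 class of the library labelled WT was small, at 115 cells of that depth.

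The label of a cytotoxic type was checked against *Nkg7*, a granule membrane protein gene, and *Xcl1*, the gene of the chemokine that attracts cross-presenting dendritic cells. Members had 715 CPM of *Nkg7* in the library labelled WT, against 357 CPM in cytokine-negative T cells without *Fasl* or *Klrk1*, and 1660 against 844 CPM in the library labelled dKO. At equal depth, 42.1% (38.7 to 45.5) and 57.0% (52.5 to 61.3) of the members had an *Nkg7* UMI, against 2.24% and 0.361% of plasmacytoid dendritic cells. For *Xcl1* these shares were 16.2% (13.8 to 18.9) and 11.8% (9.12 to 14.9) of members, against 1.12% and 1.28%. Both markers were therefore above the background, and cells with *Ifng* had an *Nkg7* UMI about as often, in 44.2% and 56.6% of cases. Because the members were proposed with these markers in view, these values are a description.

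The perforin gene was low. *Prf1* was at 16.0 CPM (10.9 to 22.5) in the members of the library labelled WT, against 30.4 CPM (20.7 to 43.2) in those of the library labelled dKO, where 1 cell held 45.2% of its UMIs. Not every member carried the markers: 33.6% and 31.7% had a *Klrk1* UMI and 57.3% and 66.7% an *Nkg7* UMI. They are therefore called by their rule and not as cytotoxic cells. *Cd4* was at 254 CPM in the members of the library labelled WT, against 843 CPM in those of the library labelled dKO, beside 254 and 942 CPM in cytokine-negative cells. *Cd8a* was at 0 and 1.96 CPM and *Cd8b1* at 5.99 and 9.81 CPM. Summed over lists of markers of other cells, members held 29.9 and 7.85 CPM of 5 B cell genes, 29.4 and 68.6 CPM of 7 myeloid genes, 2.00 and 3.92 CPM of 6 hepatocyte genes, of which 4 and 3 were at 0, and 44.4 and 47.1 CPM of 7 γδ T cell genes. The γδ T cell sums were 15.2 and 11.1 CPM in cytokine-negative cells, and the part of γδ T cells in the results was not tested. The 5 genes of plasmacytoid dendritic cells summed to 132 and 206 CPM, against 158 and 236 CPM, and 4 endothelial genes to 79.3 and 39.2 CPM, against 103 and 62.4 CPM. The 10 NK genes held 440 and 488 CPM, against 142 and 145 CPM in cytokine-negative cells.

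The first comparison asked what else distinguishes T cells with *Fasl* or *Klrk1* from the other T cells that pass the same negative gates. There were 3903 such cells in the library labelled WT, against 6260 in the library labelled dKO. Of 5914 genes counted, 25 were at least 2-fold higher in members in both libraries, which is 0.423%, and 10 were at least 2-fold lower, which is 0.169%. The higher genes included 5 of 8 NK receptor genes counted, 2 of 16 cytokine receptor genes, 4 of 15 granule and killing genes and 3 of 6 chemokine genes. The lower ones included 1 of 6 genes of naive T cells. A gene was counted with at least 50 UMIs over both groups and 20 CPM in 1 of them.

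**Figure D1:**
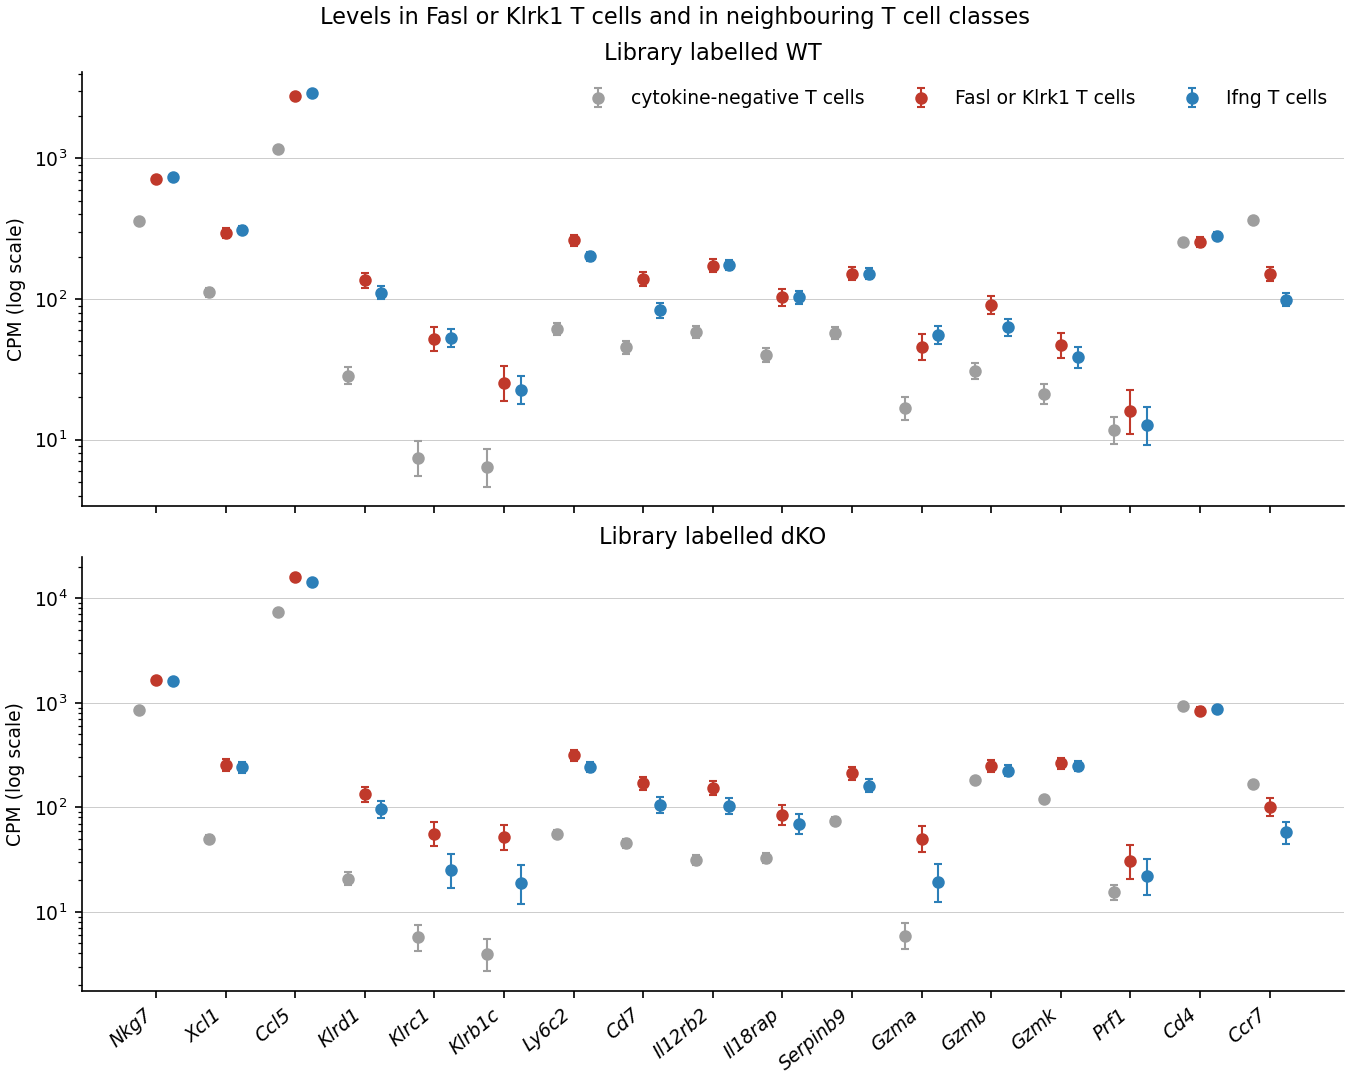
Levels of 17 genes in cytokine-negative T cells (grey), Fasl or Klrk1 T cells (red) and Ifng T cells (blue) of each library, in CPM on a log axis, with points for the level over all cells of a class and bars for exact 95% Poisson intervals. Red lies above grey for *Klrd1*, *Klrc1* and *Ly6c2* in both libraries and near blue for *Nkg7*, *Xcl1* and *Ccl5*.

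Among the receptors, *Klrd1* and *Klrc1* encode CD94 and NKG2A, the chains of an inhibitory receptor, and neighbour *Klrk1*. *Klrd1* was at 136 CPM in members and 28.6 CPM in cytokine-negative cells of the library labelled WT (log2 2.25, 1.98 to 2.52) and at 133 and 20.8 CPM in the library labelled dKO (2.68, 2.35 to 3.01). *Klrc1* was at 51.9 against 7.40 CPM (2.81, 2.31 to 3.32) and 55.9 against 5.70 CPM (3.29, 2.72 to 3.87). *Klrb1c*, the gene of NK1.1, was at 25.4 against 6.39 CPM (1.99, 1.38 to 2.61) and 52.0 against 3.91 CPM (3.73, 3.09 to 4.39). The list of killer lectin-like and NK receptors had 19 genes, of which 8 were counted and 5 were at least 2-fold higher, namely these 3, *Cd7* and *Slamf7*. Its medians were 1.34 and 1.56, beside 0.08 and −0.04 over all genes counted. *Klra9*, *Klra7*, *Klra1* and *Klre1* were too low to be counted, and each was below 40 CPM in members of either library. *Klrg1* of the same list was lower, at 15.5 against 21.1 CPM and 58.8 against 322 CPM.

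No signalling partner of NKG2D was past 2-fold in both libraries. *Hcst* was at 715 against 610 CPM in the library labelled WT (0.23, 0.14 to 0.32) and at 641 against 486 CPM in the library labelled dKO (0.40, 0.28 to 0.52). *Tyrobp* was at 64.4 against 40.1 CPM and 77.5 against 49.8 CPM. Of the 5 adaptor and signal genes counted, 0 were past 2-fold, beside 0.592% of all genes counted in either direction. *Fcer1g*, the signalling chain of Fc and some NK receptors, was at 98.8 against 40.2 CPM (1.30, 1.03 to 1.56) and 85.3 against 34.8 CPM (1.30, 0.94 to 1.64). The Fas side of the pathway also showed no gene past 2-fold among 11 counted: *Fas* itself was at 26.9 against 28.2 CPM and 45.1 against 49.2 CPM, and *Casp8*, the initiator caspase, at 83.3 against 82.6 CPM and 82.4 against 83.7 CPM. The other TNF family ligands counted, 6 in all, included *Tnf* at 85.8 against 63.7 CPM and 46.1 against 40.6 CPM and *Cd40lg*, which helps B cells and dendritic cells, at 539 against 416 CPM and 223 against 115 CPM.

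Of 18 granule and killing genes, 15 were counted and 4 were at least 2-fold higher in both libraries. *Serpinb9* and *Serpinb6b* encode serpins, of which the first is known to block granzyme B. *Serpinb9* was at 152 against 57.1 CPM (1.42, 1.19 to 1.63) and 211 against 74.2 CPM (1.51, 1.28 to 1.73), and *Serpinb6b* at 153 against 52.1 CPM (1.55) and 123 against 57.9 CPM (1.08). *Gzma*, the gene of granzyme A, was at 45.9 against 16.8 CPM (1.45) and 50 against 5.92 CPM (3.08), with 31.4% of its UMIs in the members of the library labelled dKO in 1 cell. *Gzmk*, whose span overlaps *Esm1* on the other strand, was at 46.9 against 21.3 CPM (1.14) and 265 against 119 CPM (1.16). *Gzmb*, the gene of granzyme B, was past 2-fold only in the library labelled WT, at 90.8 against 30.9 CPM (1.55, 1.26 to 1.85), and was at 249 against 182 CPM in the library labelled dKO (0.45, 0.26 to 0.65). The genes of granule transport and docking were near 0 or lower: *Unc13d* was at 0.09 and −0.41, *Rab27a* at 0.24 and −0.05 and *Stx11* at −0.26 and −0.84. The list's medians were 0.57 and 0.13.

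Of 6 chemokine genes counted, 3 were at least 2-fold higher in members in both libraries. *Ccl5*, whose product recruits T cells, was at 2790 against 1170 CPM (1.25, 1.21 to 1.30) and 16000 against 7420 CPM (1.11, 1.08 to 1.13). *Xcl1* was at 293 against 112 CPM (1.39, 1.23 to 1.54) and 255 against 50.1 CPM (2.35, 2.12 to 2.57). *Ccl3* was at 27.4 against 8.86 CPM (1.63) and 175 against 65.1 CPM (1.42), and *Ccl4* at 151 against 52.8 CPM (1.52) and 958 against 547 CPM (0.81). A single cell held 23.1% of the *Ccl4* UMIs of members in the library labelled WT. The *Ccl5* RNA was spread unevenly over cells. The median member had 1020 CPM of its own UMIs in the library labelled WT, against 4370 CPM in the library labelled dKO, and the 90th percentile was at 8110 and 55000 CPM.

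Of 16 cytokine receptor genes counted, 2 were higher in members and 1 was lower. *Il12rb2*, a chain of the IL-12 receptor, was at 173 against 58.8 CPM (1.56, 1.35 to 1.77) and 153 against 31.4 CPM (2.28, 1.99 to 2.57). *Il18rap*, a chain of the IL-18 receptor, was at 103 against 40.2 CPM (1.35, 1.09 to 1.62) and 85.3 against 33.0 CPM (1.37, 1.01 to 1.72). *Ifngr2*, a chain of the interferon γ receptor, was lower, at 30.9 against 81.9 CPM (−1.40) and 16.7 against 36.0 CPM (−1.11). *Ly6c2*, a surface marker of effector T cells, was at 261 against 61.3 CPM (2.09, 1.91 to 2.28) and 314 against 56.0 CPM (2.49, 2.28 to 2.69). *Itga1*, a collagen-binding integrin of tissue-resident T cells, was at 99.8 against 45.0 CPM (1.15) and 45.1 against 14.3 CPM (1.66). Of the transcription factors, 24 were counted and *Zbtb16*, the gene of PLZF that directs NKT cell development, was past 2-fold, at 35.4 against 9.58 CPM (1.89, 1.38 to 2.39) and 53.0 against 9.72 CPM (2.45, 1.93 to 2.95). *Tbx21*, the gene of T-bet, was at 170 against 90.6 CPM (0.90) and 104 against 83.9 CPM (0.31), and *Stat4* at 588 against 365 CPM (0.69) and 510 against 319 CPM (0.68).

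Of 6 genes of naive and recirculating T cells, 1 was at least 2-fold lower in members in both libraries. This was *Dapl1*, at 17.5 against 50.5 CPM (−1.53) and 12.7 against 27.8 CPM (−1.13). The lymph node homing gene *Ccr7* was at 152 against 368 CPM (−1.28) and 101 against 167 CPM (−0.73), and 1 member of the library labelled dKO held 31.1% of its UMIs. The ratio of the library labelled dKO varied with the processing, at −0.24 with gates on cells thinned to 1000 UMIs, −1.23 without doublets and −2.64 with 1 cell per clonotype. The 6 naive genes had medians of −0.99 and −0.54. *Actn1* was at 28.4 against 81.2 CPM (−1.51) and 6.86 against 27.9 CPM (−2.02). Of 5 genes of regulatory T cells counted, 0 were past 2-fold in both libraries: *Ikzf2* was at 128 against 152 CPM and 296 against 793 CPM, *Ctla4* at 280 against 296 CPM and 645 against 1530 CPM, and *Tnfrsf4* at 186 against 261 CPM and 456 against 1510 CPM. Beside this, 36.0% (32.9 to 39.1) of the cytokine-negative cells with a clonotype in the library labelled dKO lay in clonotypes that also held *Foxp3* cells, against 7.31% (5.66 to 9.25) in the library labelled WT. The 5 markers of regulatory T cells summed to 892 against 980 CPM in the library labelled WT and to 1910 against 4800 CPM in the library labelled dKO. Of the members with a clonotype, 20% (12.8 to 28.9) lay in clonotypes with *Foxp3* cells under the dKO label and 13.5% (9.42 to 18.5) under the WT label. Without *Ikzf2* or *Ctla4* cells and such clonotypes, 16 genes were higher and 26 lower.

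The second comparison set the members against 1389 and 706 cells with *Ifng*, the cytokine gene of type 1 helper T cells, which passed the other negative gates and were not selected on *Fasl* or *Klrk1*. Of 5513 genes counted, 0 were at least 2-fold higher in members in both libraries, which is 0.00%, and 3 were at least 2-fold lower, which is 0.0544%. Among the genes higher in members than in cytokine-negative cells, *Klrb1c* (0.17 and 1.48), *Klrc1* (−0.03 and 1.15) and *Gzma* (−0.27 and 1.36) were more than 2-fold above the Ifng cells in the library labelled dKO. The 10 NK markers summed to 440 against 348 CPM and 488 against 301 CPM. *Nkg7* was at 715 against 736 CPM (−0.04, −0.14 to 0.05) and 1660 against 1620 CPM (0.04, −0.06 to 0.13), *Xcl1* at −0.08 (−0.23 to 0.07) and 0.08 (−0.17 to 0.32), and *Il12rb2* at −0.02 (−0.21 to 0.18) and 0.57 (0.22 to 0.92). *Klrd1* was at 136 against 111 CPM (0.29, 0.05 to 0.52) and 133 against 95.8 CPM (0.48, 0.11 to 0.84). *Tbx21* was at 170 against 200 CPM (−0.24) and 104 against 132 CPM (−0.34).

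The 3 lower genes were all of secreted proteins. *Cxcl10*, a chemokine that interferon γ induces and whose span overlaps *Art3* on the other strand, was at 34.9 against 99.3 CPM (−1.51, −1.90 to −1.13) and 41.2 against 121 CPM (−1.55, −2.09 to −1.05). *Ccl1* was at 3.49 against 104 CPM (−4.90, −6.22 to −3.84) and 22.6 against 71.5 CPM (−1.66, −2.39 to −0.99), and *Csf2*, the gene of GM-CSF, at 4.49 against 29.0 CPM (−2.69) and 11.8 against 31.7 CPM (−1.43). In the members of the library labelled dKO, 1 cell held 52.2% of the *Ccl1* UMIs. Among cells with a β chain, 0 of 2626 genes counted were past 2-fold in either direction. *Irf4*, a factor that follows receptor stimulation, was at 38.9 against 64.9 CPM (−0.74, −1.13 to −0.36) and 22.6 against 53.6 CPM (−1.25, −2.00 to −0.54). Of 18 immediate early genes, 0 passed 2-fold, and 14 were below the level of the Ifng cells in both libraries by any amount and 0 above it. Of 5512 genes, without 1 counted gene whose symbol occurs more than once, 1702 were below it in both libraries and 1286 above it. The immediate early genes had medians of −0.08 and −0.32, beside −0.02 and −0.02 over all genes counted.

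No heat shock gene was past 2-fold in both libraries. *Hspa1a* was at 318 against 549 CPM (−0.79, −0.92 to −0.66) and 212 against 429 CPM (−1.02, −1.25 to −0.79), *Hspa1b* at −0.65 and −1.09, *Dnajb1* at −0.56 and −0.56 and *Hsph1* at −0.46 and −0.60. In the list of nuclear and stress RNA, 0 of 8 genes passed 2-fold, and 7 of 8 were below the level of the Ifng cells in both libraries, by any amount, as were 1702 of 5512 genes, which leave out 1 counted gene whose symbol occurs more than once. The genes named at the other end were *Cd7* at 139 against 83.0 CPM (0.74) and 170 against 106 CPM (0.68), *Ccr7* at 152 against 99.3 CPM (0.61) and 101 against 57.7 CPM (0.81), and *Satb1*, a chromatin organiser of T cells, at 286 against 204 CPM (0.49) and 230 against 138 CPM (0.74). In the members of the library labelled dKO, 1 cell held 31.1% of the *Ccr7* UMIs. *Fcer1g*, *Pja1*, *Ugcg*, *Acvr2a* and *Tcp11l2* completed that end, between 0.48 and 0.68. Of 4 naive genes counted, 0 passed 2-fold and 4 were above the level of the Ifng cells, as were 1286 of all genes, with medians of 0.45 and 0.47.

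The third comparison asked whether the 2 positive gates select the same cells. Of 3038 genes counted, 11 were at least 2-fold higher in Klrk1-only than in Fasl-only cells in both libraries, which is 0.362%, and 2 were at least 2-fold lower, which is 0.0658%, or 0.428% in either direction. The higher genes included *Klrd1*, the 1 of 4 killer receptor genes counted that passed, and *Tyrobp*, the 1 of 5 NKG2D adaptor and signal genes. *Klrd1* was called in 4 of 6 alternative settings and *Tyrobp* in 0 of 6. For *Tyrobp* 1 of these settings leaves out its cells by construction, and in 4 it had under 50 UMIs in the library labelled dKO and so was not counted, at 2.51 and 1.02 without doublets, 2.85 and 2.46 among cells with a β chain, 2.88 and 3.36 with 1 cell per clonotype and 2.39 and 1.42 without class II cells. The lower genes were *Gzmk* and *Sh3rf1*. The 10 NK markers summed to 870 and 807 CPM in Klrk1-only cells, 869 and 971 CPM in double-positive cells and 197 and 306 CPM in Fasl-only cells. Sums of markers of other cells differed as well. The 7 γδ T cell genes were at 72.7 against 25.7 CPM in Fasl-only cells and 76.9 against 28.4 CPM, the 5 genes of plasmacytoid dendritic cells at 174 against 126 CPM and 349 against 146 CPM, and the 5 B cell genes at 101 against 13.3 CPM and 0 against 8.96 CPM. The part of such cells in the 11 genes was not tested.

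**Figure D2:**
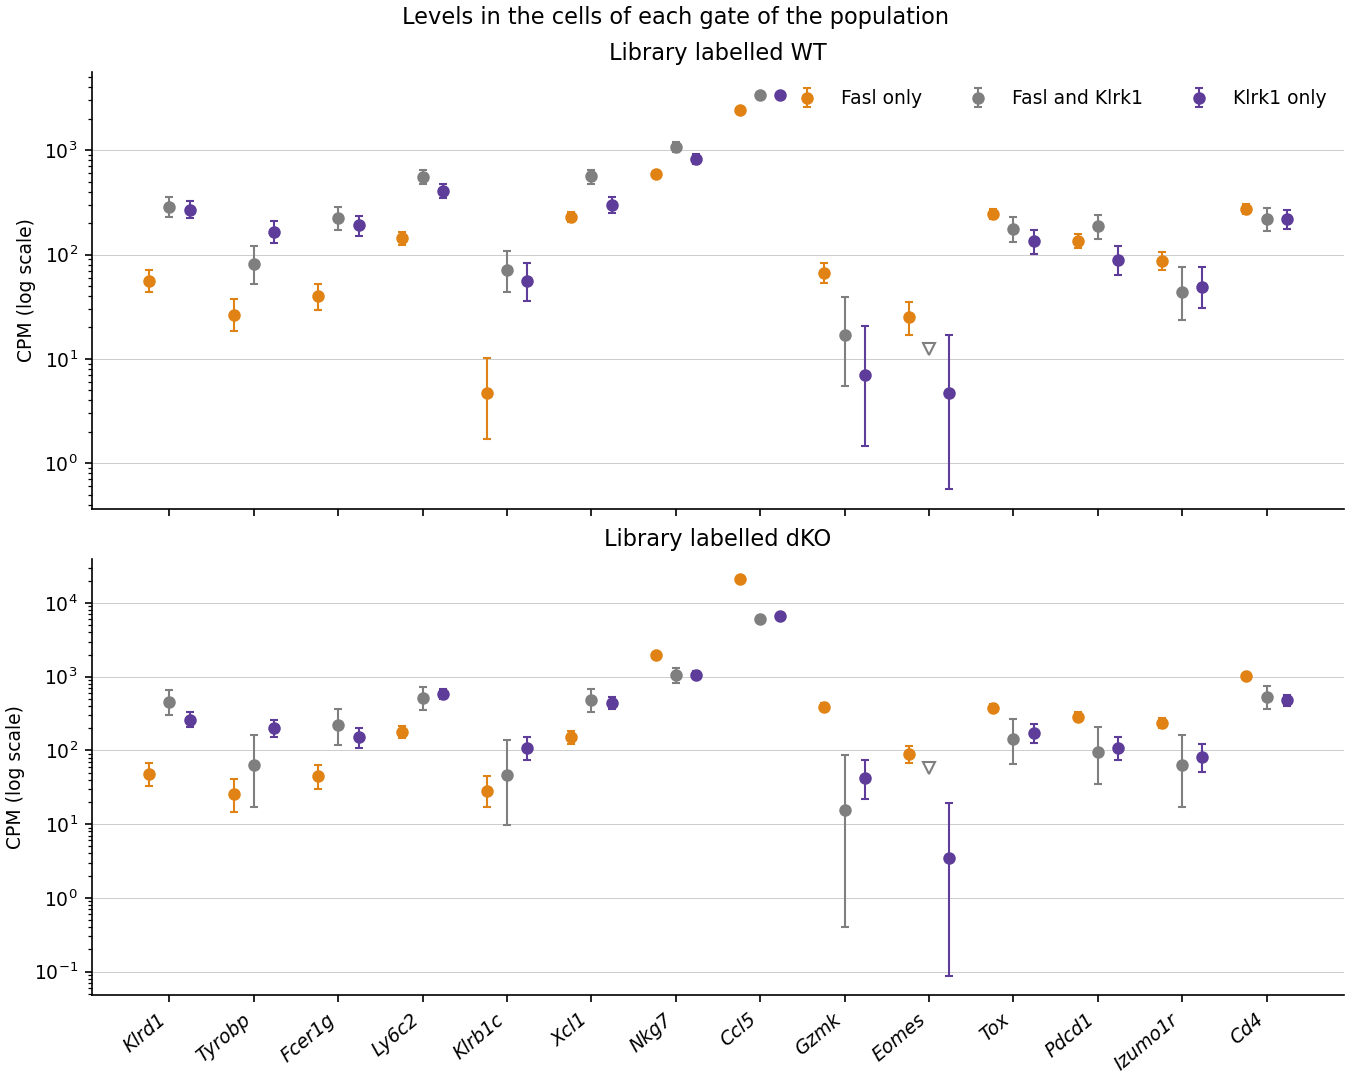
Levels of 14 genes in Fasl-only (orange), double-positive (grey) and Klrk1-only (purple) cells of each library, in CPM on a log axis with exact 95% Poisson intervals, open triangles marking the upper limit where no UMI was found. Purple lies above orange for *Klrd1*, *Tyrobp*, *Fcer1g* and *Ly6c2*, and orange above purple for *Gzmk* and *Eomes*, in both libraries.

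*Klrd1* was at 270 CPM in Klrk1-only and 56.2 CPM in Fasl-only cells of the library labelled WT (2.26, 1.83 to 2.71) and at 262 and 47.8 CPM in the library labelled dKO (2.45, 1.84 to 3.10). *Tyrobp*, the DAP12 adaptor of NKG2D, was at 166 against 26.5 CPM (2.65, 2.04 to 3.28) and 203 against 25.4 CPM (3.0, 2.20 to 3.87), with 25.9% of the UMIs of the latter Klrk1-only cells in 1 cell. *Fcer1g* was at 190 against 39.8 CPM (2.26) and 150 against 44.8 CPM (1.75), and *Ly6c2* at 410 against 144 CPM (1.52) and 583 against 179 CPM (1.70). *Klrc1* was at 103 against 15.6 CPM and 105 against 23.9 CPM and *Zbtb16* at 72.7 against 10.9 CPM and 83.8 against 31.4 CPM, both on too few UMIs to be counted. *Hcst*, the other adaptor, was at 0.20 and −0.05. Where the gates were applied to cells thinned to 1000 UMIs, the library labelled dKO had *Tyrobp* at 0.27, *Fcer1g* at 0.19 and *Klrd1* at 1.54, and the library labelled WT had them at 1.96, 2.71 and 1.90. Among cells with a β chain none of the 11 was counted as higher in both libraries, of 1187 genes counted, and *Klrd1* was at 2.74 and 2.11.

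*Gzmk* was at 7.03 CPM in Klrk1-only and 67.1 CPM in Fasl-only cells of the library labelled WT (−3.25, −5.56 to −1.66) and at 41.9 and 384 CPM in the library labelled dKO (−3.19, −4.17 to −2.37). *Eomes*, a T-box factor of cytotoxic cells, was at 4.69 against 25.0 CPM and 3.49 against 88.1 CPM. *Tox*, *Izumo1r* and *Pdcd1* were not past 2-fold in both libraries, with *Tox* at 134 against 246 CPM (−0.88) and 171 against 378 CPM (−1.14), *Izumo1r* at 49.2 against 87.4 CPM (−0.83) and 80.3 against 237 CPM (−1.56), and *Pdcd1* at 89.1 against 136 CPM (−0.61) and 108 against 288 CPM (−1.41). *Cd4* was at 218 against 275 CPM (−0.33, −0.68 to 0.00) and 482 against 1030 CPM (−1.09, −1.37 to −0.83). *Nkg7* and *Ccl5* went opposite ways in the libraries, *Nkg7* at 0.47 (0.29 to 0.66) and −0.91 (−1.09 to −0.72) and *Ccl5* at 0.46 (0.37 to 0.55) and −1.67 (−1.74 to −1.60). Of 15 T cell receptor signalling genes, 0 passed 2-fold and 13 were below the level of Fasl-only cells in both libraries by any amount, with medians of −0.17 and −0.45. Of 3037 genes, again without that 1, 906 were below it in both, with medians of −0.02 and −0.02.

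The genes of MHC class II presentation were also among the 11, with *H2-Aa* at 396 against 47.6 CPM (3.06) and 531 against 65.7 CPM (3.01). This rested on few cells. In the library labelled WT, 5 of the 194 Klrk1-only cells held 95.1% of their class II UMIs, and in the library labelled dKO 7 of 149 held 94.2%. Without cells of at least 5 class II UMIs, *H2-Aa* was at −0.14 and −0.79 and 5 genes were higher. Of the cells left out, 3 of the 5 and 0 of the 7 had a β chain.

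The receptor libraries gave a β chain for 375 of 904 members (41.5%, 38.2 to 44.8) in the library labelled WT, against 206 of 586 (35.2%, 31.3 to 39.2) in the library labelled dKO. An α chain that joins TRAV11 to TRAJ18, whether or not its CDR3 is among the 4 printed above, was found in 18 of 275 members with an α chain (6.55%, 3.93 to 10.1) and in 17 of 120 (14.2%, 8.47 to 21.7). Among cytokine-negative cells it was found in 1.17% (0.603 to 2.03) and 1.48% (0.896 to 2.31), among Ifng cells in 3.71% (2.18 to 5.88) and 9.79% (5.46 to 15.9), and among *Foxp3* cells in 0 of 192, which allows up to 1.56%, and 1 of 942. The Klrk1-only cells had most of it, at 10 of 56 (17.9%, 8.91 to 30.4) and 9 of 29 (31.0%, 15.3 to 50.8), against 3 of 182 (1.65%, 0.341 to 4.74) and 5 of 87 (5.75%, 1.89 to 12.9) of the Fasl-only cells. Their intervals do not overlap in either library. The double-positive cells had 5 of 37 (13.5%, 4.54 to 28.8) and 3 of 4 (75.0%, 19.4 to 99.4).

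**Figure D3:**
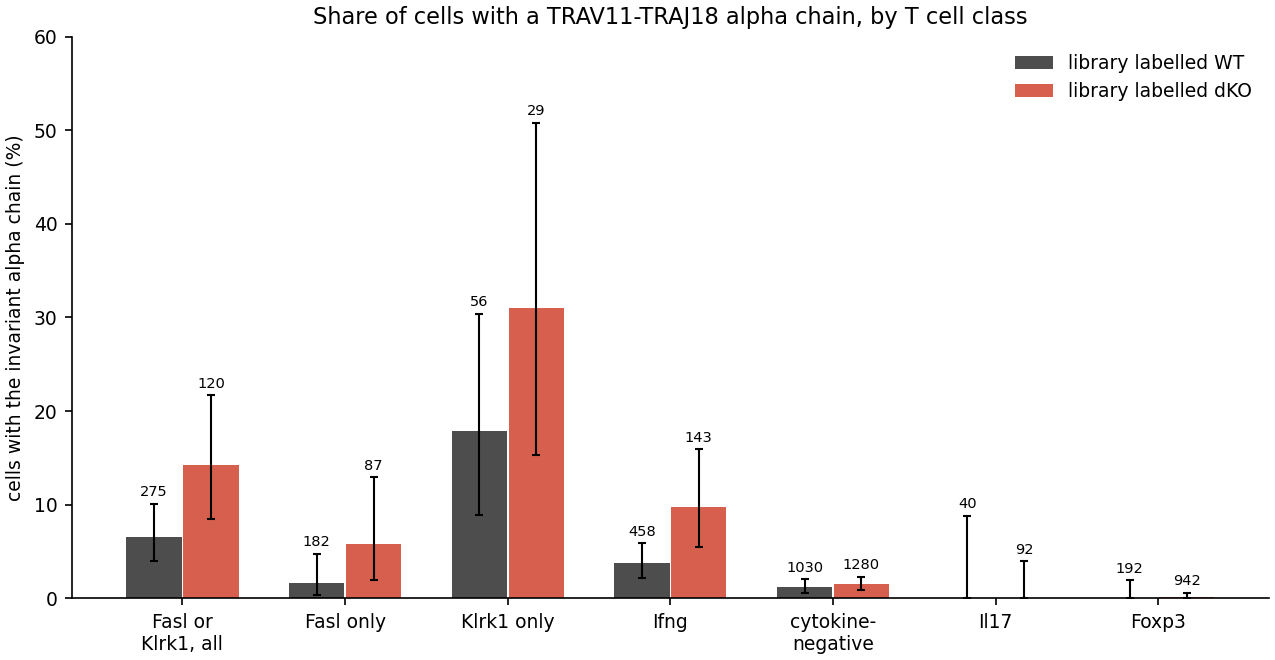
Share of cells with a TRAV11-TRAJ18 α chain among cells with an α chain, in percent, by class and library, with exact 95% binomial intervals and the number of cells with an α chain above each bar. Of the classes drawn, which leave out double-positive cells, Klrk1-only cells stand highest, at 17.9% and 31.0%, and *Foxp3* cells near 0.

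The RNA of the 18 and 17 members with the invariant chain was set beside that of other members with an α chain. *Zbtb16* was at 313 CPM (162 to 546) against 11.9 CPM in the library labelled WT and at 143 CPM (46.5 to 334) against 52.8 CPM (26.4 to 94.5) in the library labelled dKO, where the intervals overlap. *Ly6c2* was at 1850 CPM (1440 to 2330) against 144 CPM and 1290 CPM (939 to 1720) against 168 CPM. *Il4*, a cytokine gene that invariant NKT cells hold ready, was at 156 CPM (57.4 to 340) against 28.2 CPM and 229 CPM (98.8 to 451) against 19.2 CPM. *Cd4* was at 26.1 CPM (0.660 to 145) against 253 CPM and 229 CPM (98.8 to 451) against 778 CPM. *Gzmk* was at 0 CPM (0.00 to 96.1) against 61.0 CPM and 0 CPM (0.00 to 106) against 283 CPM, so that no difference was detectable at this depth in the library labelled WT. Their β chains used TRBV13-2 in 13 of 18 cells and 7 of 16. The α chain TRAV1-TRAJ33 of mucosal-associated invariant T cells was found in 0 of 275 and 0 of 120 members, which allows up to 1.09% and 2.50%.

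Clonal sharing was the last measurement the rule did not use. A clonotype could be given to 237 members in the library labelled WT, against 105 in the library labelled dKO, in 181 and 86 clonotypes, of which 156 and 77 held a single member. In clonotypes of 2 or more cells of the library were 51.1% (44.5 to 57.6) and 41.9% (32.3 to 51.9) of these members. Cytokine-negative cells were at 32.9% (29.8 to 36.2) and 52.5% (49.2 to 55.7), and Ifng cells at 52.6% (47.5 to 57.6) and 51.7% (42.3 to 61.1). Clonotypes that also held Ifng cells contained 35.9% (29.8 to 42.3) and 26.7% (18.5 to 36.2) of the members, against 22.7% (20 to 25.7) and 23.1% (20.4 to 26.0) of the cytokine-negative cells. For the library labelled dKO these intervals overlap. A cell can share a clonotype with an Ifng cell only in a clonotype of 2 or more cells. These shares therefore depend on the shares in such clonotypes given above, which differed between the classes. They do not show whether expanded members share clonotypes with Ifng cells more often than expanded cytokine-negative cells. The Klrk1-only cells of the library labelled dKO shared no clonotype with Ifng cells, at 0 of 21, which allows up to 14.3%, whereas those of the library labelled WT did in 21 of 51 (41.2%, 27.6 to 55.8). Fasl-only cells did so in 36.4% (28.8 to 44.5) and 35.0% (24.7 to 46.5).

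Clonotypes of 10 or more cells numbered 19 in each library. Members were found in 15 of them under the WT label, against 11 under the dKO label. Of these, 15 and 9 also held Ifng cells, beside 19 and 10 of all 19 in each library. WT clone 1, whose sequences are given above, had 54 cells, of which 17 were members (31.5%, 19.5 to 45.6), 10 were Ifng cells and 16 were cytokine-negative. WT clone 2 had 70 cells, with 7 members, 14 Ifng cells and 28 cells with *Mki67*. No cell of WT clone 1 had a *Gzmk* UMI. In dKO clone 1, all 35 cells had one, 5 of them members, and in dKO clone 4, with the same β chain, all 18 cells, 3 of them members. In dKO clones 2 and 5, which share another β chain, *Gzmk* was found in 20 of 26 and 14 of 16 cells. Clones of either label differed in this: dKO clones 3 and 6 had *Gzmk* in 1 of 12 and 3 of 15 cells, and all 3 cells of WT clone 10, each of them a member, had it. The members of all 6 dKO clones were Fasl-only cells.

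**Figure D4:**
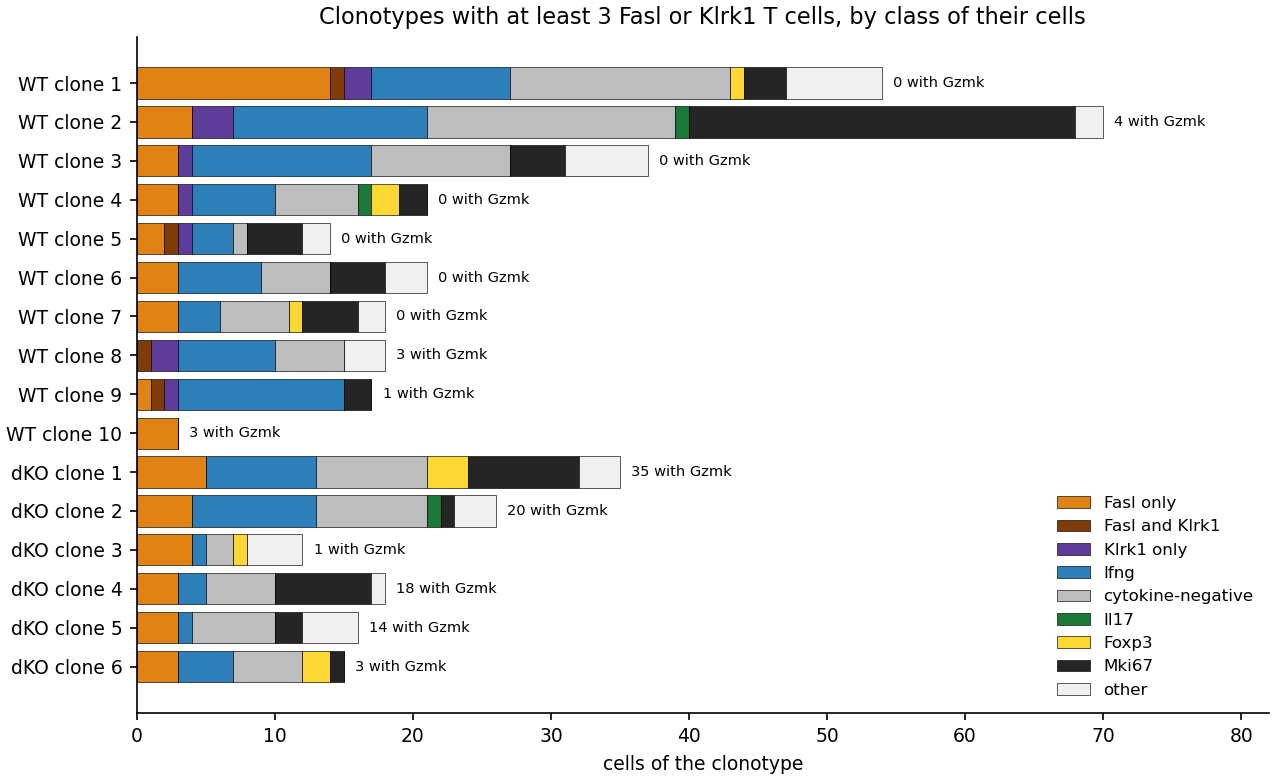
Cells of the 16 clonotypes with at least 3 members, 10 of the WT label and 6 of the dKO label, coloured by class, with the number of cells that had a *Gzmk* UMI at the end of each bar. All 35 and 18 cells of dKO clones 1 and 4 and all 3 of WT clone 10 had *Gzmk*, against 1 of 12 and 3 of 15 in dKO clones 3 and 6 and none in WT clones 1 and 3.

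The last comparison set the members of the library labelled dKO against those of the library labelled WT. Of 6282 genes counted, 84 were at least 2-fold higher in the members of the library labelled dKO, which is 1.34%, and 169 were at least 2-fold lower, which is 2.69%, or 4.03% in either direction. The median over all genes was −0.07. The higher genes included chemokine, granzyme, checkpoint and regulatory T cell genes, and the lower ones *Cd40lg* and transcripts that overlap ribosomal RNA. With 1 library per genotype, genotype and library cannot be told apart. For many of the genes named, the ratios in cytokine-negative cells and in Ifng cells of the same libraries are given beside those of the members, and no difference between these ratios was tested.

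**Figure D5:**
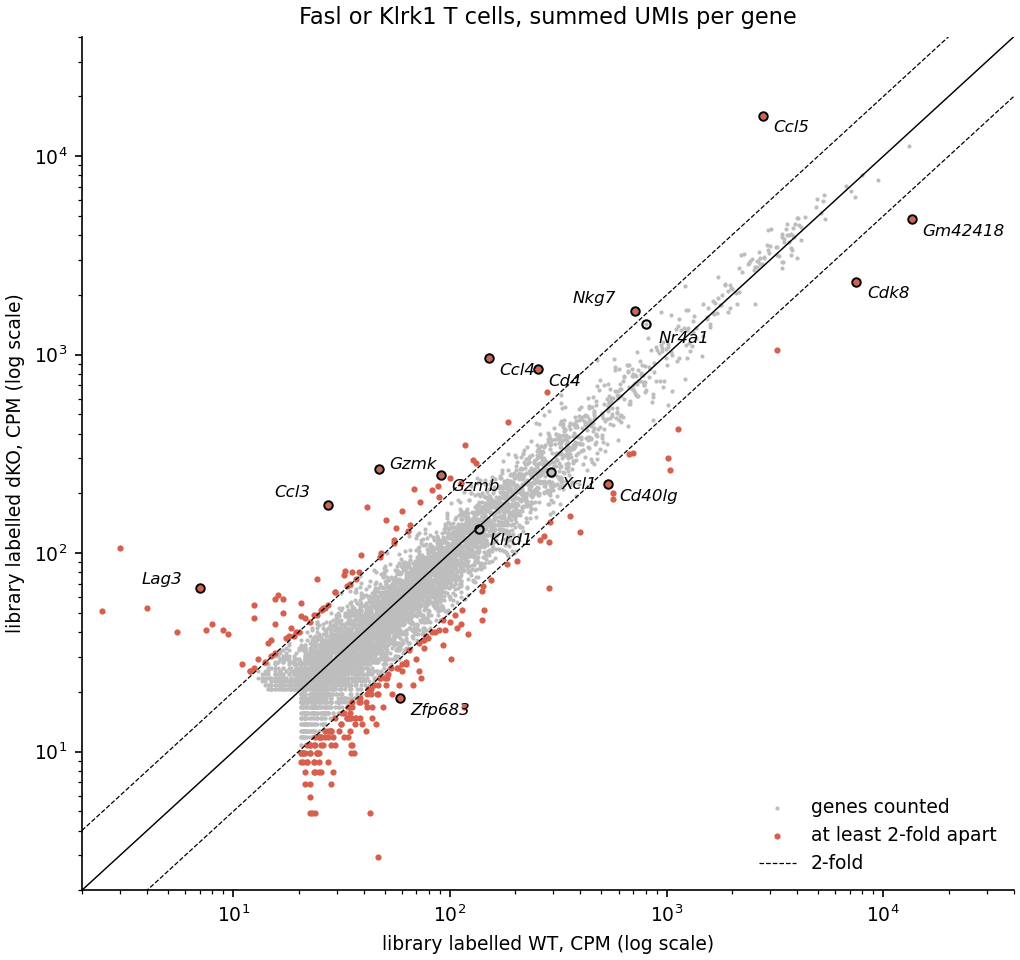
Level of each gene counted in Fasl or Klrk1 T cells, library labelled dKO against library labelled WT, in CPM on log axes, with red points at least 2-fold apart, the solid line at equality and dashed lines at 2-fold. *Ccl5*, *Ccl4*, *Ccl3* and *Gzmk* lie above the upper line, *Cdk8* and *Gm42418* below the lower one, and *Xcl1* and *Klrd1* near equality.

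In the members of the libraries labelled WT and dKO, *Fasl* was at 454 and 513 CPM and *Klrk1* at 229 and 245 CPM. The rule requires a UMI of these genes in every member, so their levels are a description and not a comparison of the libraries. Of genes outside the rule, *Xcl1* (−0.20, −0.42 to 0.01), *Klrd1* (−0.03, −0.33 to 0.28) and *Klrc1* (0.11, −0.38 to 0.59) were near equal. *Ccl5* was at 2790 and 16000 CPM (2.52, 2.48 to 2.56), with ratios of 2.67 in cytokine-negative and 2.28 in Ifng cells. *Ccl4* was at 151 and 958 CPM (2.66, 2.48 to 2.85) and *Ccl3* at 27.4 and 175 CPM (2.67, 2.23 to 3.13). *Nkg7* was at 715 and 1660 CPM (1.21, 1.11 to 1.32), *Gzmb* at 90.8 and 249 CPM (1.46, 1.18 to 1.74) and *Cst7*, a cystatin of cytotoxic granules, at 56.4 and 134 CPM (1.25, 0.88 to 1.63). Of 17 granule and killing genes counted, 5 were higher and 0 lower. One of the 5, *Gzmc*, at 7.48 and 41.2 CPM, had 76.2% of its UMIs in 1 cell. *Tbx21* was at 170 and 104 CPM (−0.71, −1.04 to −0.39). In cytokine-negative cells and in Ifng cells, the ratios were 3.37 and 3.08 for *Ccl4*, 2.88 and 3.17 for *Ccl3*, 1.24 and 1.13 for *Nkg7*, 2.56 and 1.83 for *Gzmb*, 2.42 and 1.82 for *Cst7* and −0.11 and −0.61 for *Tbx21*. Both were above the members' ratio for *Ccl4*, *Ccl3*, *Gzmb* and *Cst7*. Among members without *Gzmk*, the ratios between the libraries were 0.66 for *Ccl4*, 0.34 for *Ccl3*, 0.55 for *Nkg7* and 0.75 for *Cst7*, none of them past 2-fold, and 1.24 for *Ccl5* and 1.19 for *Gzmb*.

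Among checkpoint and costimulatory receptors, 6 of 17 were higher and 0 lower. *Lag3*, an inhibitory receptor for MHC class II, was at 6.99 and 66.7 CPM (3.26, 2.41 to 4.20), with 4.15 in cytokine-negative and 4.28 in Ifng cells. *Tigit* was at 117 and 351 CPM (1.58, 1.34 to 1.83), *Tnfrsf9*, the gene of 4-1BB, at 68.4 and 210 CPM (1.62, 1.30 to 1.94), and *Ctla4* at 280 and 645 CPM (1.20, 1.04 to 1.37). *Ikzf2* was at 128 and 296 CPM (1.21), and the regulatory T cell list had a median of 1.20, with 3 of 5 genes higher. *Il10*, the gene of an anti-inflammatory cytokine, was at 3.99 and 53.0 CPM (3.73, 2.65 to 5.01). *Cd4* was at 254 and 843 CPM (1.73, 1.57 to 1.89), with 1.89 and 1.63 in the other classes. *Rgs16* was at 41.4 and 171 CPM (2.04), *Klrg1* at 15.5 and 58.8 CPM (1.93) and *Setbp1* at 12.5 and 54.9 CPM (2.14). For each of *Tigit*, *Tnfrsf9*, *Ctla4*, *Ikzf2* and *Klrg1* the ratio in cytokine-negative cells was larger, between 2.38 and 3.94. In cytokine-negative and Ifng cells, *Il10* was at 4.54 and 3.88, *Rgs16* at 2.75 and 2.22 and *Setbp1* at 3.21 and 2.02. Among members without *Gzmk*, *Lag3* was at 1.56, *Il10* at 2.30, *Rgs16* at 1.31 and *Setbp1* at 1.07.

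On the other side, *Cd40lg* was at 539 and 223 CPM (−1.28, −1.49 to −1.07), *Itga1* at 99.8 and 45.1 CPM (−1.15, −1.64 to −0.68) and *Lef1*, a factor of naive T cells, at 259 and 116 CPM (−1.16, −1.46 to −0.87). *Zfp683*, the gene of the residency factor Hobit, was at 58.9 and 18.6 CPM (−1.66, −2.44 to −0.95), and *Il31ra* at 398 and 128 CPM (−1.63, −1.91 to −1.36). *Lrig1* and *St8sia1* were at −1.65 and −1.64, and *Grap2*, an adaptor of T cell receptor signalling, at 1010 and 303 CPM (−1.74). These genes were lower in the other classes too, with ratios in cytokine-negative and Ifng cells of −1.86 and −1.24 for *Cd40lg*, −1.65 and −1.22 for *Itga1*, −1.49 and −0.70 for *Lef1*, −2.12 and −1.0 for *Zfp683*, −1.55 and −1.39 for *Il31ra*, −1.02 and −1.0 for *Lrig1*, −2.02 and −1.96 for *St8sia1* and −1.69 and −1.93 for *Grap2*. Without *Gzmk* cells, *Itga1*, at −0.96, and *Lef1*, at −0.99, were not past 2-fold. *Filip1l* was at 288 and 66.7 CPM (−2.11), and overlaps *Cmss1* on the other strand, which was at 3240 and 1060 CPM (−1.61). *Cdk8* was at 7520 and 2330 CPM (−1.69). *Gm42418* and *AY036118*, both of which overlap a ribosomal RNA gene on chromosome 17, were at 13500 and 4800 CPM (−1.49) and 1130 and 421 CPM (−1.43). In cytokine-negative and Ifng cells the ratios of *Cdk8*, *Cmss1*, *Filip1l* and *Gm42418* lay between −1.37 and −2.00, so they were of like size in the 3 classes. The part of ribosomal RNA in the other ratios was not tested.

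Within the members, the cells with *Gzmk* carried much of the chemokine RNA of the library labelled dKO. They numbered 56 of 904 (6.19%) in the library labelled WT, against 116 of 586 (19.8%) in the library labelled dKO, and 48 and 110 of them were Fasl-only cells. Members with *Gzmk* of the library labelled dKO had 50900 CPM (50000 to 51800) of *Ccl5*, against 6310 CPM (6140 to 6490) in members without, and 3590 CPM (3350 to 3850) of *Ccl4*, against 229 CPM (197 to 265). *Nkg7* was at 4020 against 1010 CPM and *Ccl3* at 688 against 32.6 CPM. *Eomes* was at 240 CPM (180 to 314) against 8.76 CPM (3.52 to 18.1), *Lag3* at 226 against 22.5 CPM, *Tox* at 670 against 204 CPM and *Cd4* at 1380 against 696 CPM. *Xcl1* was lower, at 81.4 against 303 CPM, as were *Klrd1* at 22.6 against 164 CPM, *Cd40lg* at 113 against 253 CPM and *Nr4a1* at 661 CPM (558 to 777) against 1620 CPM (1540 to 1710).

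In the library labelled WT the same split gave *Eomes* at 91.9 CPM (52.5 to 149) against 9.84 CPM (5.83 to 15.5) and *Tox* at 419 against 192 CPM, and a smaller gap for *Ccl5*, at 4060 against 2660 CPM. *Cd4*, at 236 CPM (169 to 320) against 256 CPM (234 to 281), and *Cd40lg*, at 494 CPM (395 to 610) against 543 CPM (510 to 578), had overlapping intervals there. So did *Ccl4*, at 213 CPM (150 to 293) against 145 CPM (128 to 164), and *Ccl3*, at 46.0 CPM (19.8 to 90.6) against 25.7 CPM (18.9 to 34.1). *Lag3* was at 0 CPM (0.00 to 21.2) against 7.65 CPM. Members with *Gzmk* lay in clonotypes of 2 or more cells in 13 of 20 (65.0%, 40.8 to 84.6) and 21 of 24 cases (87.5%, 67.6 to 97.3), and the 24 fell into 12 clonotypes. Members without it did in 49.8% (42.9 to 56.6) and 28.4% (18.9 to 39.5). The median depth was 2663 UMIs with *Gzmk* and 1848 without in the library labelled WT, and 1732.5 and 1482.5 in the library labelled dKO. Without *Gzmk* cells, 55 genes were higher and 179 lower in the members of the library labelled dKO, 40 and 109 of them among the 84 and 169, and *Eomes* was at −0.17 in place of 1.79. The libraries then stood at 145 and 229 CPM of *Ccl4*, 25.7 and 32.6 CPM of *Ccl3* and 688 and 1010 CPM of *Nkg7*.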

How the data were processed

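Hepatic CD4+ T cells of 1 WT and 1 dKO library, each pooled from 2 mice, were studied with their RNA and T cell receptor sequences, which form 4 deposited samples. The authors ran Cell Ranger 7.0.1 (per the file headers) against mm10 and deposited filtered matrices of UMI counts per gene and cell, with no normalization, and a table of receptor contigs per library, whose other columns used here are gene names, CDR3 nucleotides and clonotype numbers. Cells with more than 200 genes and under 5% of UMIs from mitochondrial genes were kept, without a doublet filter. Libraries held 10556 and 17462 such cells. Members and gene lists were chosen with earlier results of these data known.

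UMI counts were summed per class and library and scaled to CPM. Intervals are exact at 95%: Poisson for levels, conditional binomial for ratios and Clopper-Pearson for shares, and they cover counting error only. With 1 library per genotype no test was run. A gene was counted with at least 50 UMIs over both groups and 20 CPM in 1 of them, and called at 2-fold, in both libraries for the first 3 comparisons. Genes named in the text belong to the lists or are the 8 highest and the 8 lowest by whichever library's ratio was closer to 0 (between genotypes, by the ratio itself). For these, 50 CPM in 1 group, 50 UMIs over both groups and 10 UMIs in the lower group were required, and rule genes and receptor segments were left out. A few genes that the rule names are not reported here. The gene singled out for its low level, *Prf1*, and the class II genes were described after their values were seen. Clonotypes were defined by V gene and CDR3 nucleotides of the α and β contig with most UMIs. CDR3 bases were matched to germline V and J transcripts of GENCODE M21, which also gave the positions on GRCm38.

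The procedure was tested on simulated data with 200 genes changed 4-fold: 100% were called in the comparisons run on 5812, 5435, 3010 and 6272 genes, and 0, 0, 1 and 20 unchanged genes. The changed genes had at least 200 UMIs over the groups compared. Counts were Poisson draws without spread between cells or mice. The share called therefore does not cover smaller changes, genes with fewer UMIs or RNA held by few cells. Alternatives were gates on cells thinned to 1000 UMIs, at least 2 UMIs of *Fasl* and *Klrk1*, removal of doublets (highest Scrublet scores at 0.8% per 1000 cells, or 2 β chains), cells with a β chain only, removal of cells with *Cd8a*, *Cd8b1*, *Trdc* or *Tyrobp*, 1 cell per clonotype, removal of invariant receptors, means of per-cell CPM, TMM scaling (edgeR 4.0.16), a fold of 1.5, a minimum of 10 UMIs and other clonotype definitions. Python 3.11.15, numpy 2.4.6, scipy 1.17.1, pandas 2.3.3, scanpy 1.11.5 and R 4.3.3 were used.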

Additional observations from a re-analysis of the deposited data

Results flagged for a closer look

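For 11 genes named in the text or its lists, the members lay above cytokine-negative T cells in the library labelled WT and below them in the library labelled dKO, on the log2 scale of CPM. They were *Icos* (0.46 and −0.48), *Cst7* (0.57 and −0.59), *Hopx* (0.33 and −0.93), *Isg20* (0.52 and −0.80), *Maf* (0.34 and −0.49), *Prdm1* (0.49 and −0.46), *Id2* (0.44 and −0.40), *Ly6a* (0.38 and −0.39), *Nr4a1* (0.45 and −0.36), *Tigit* (0.43 and −1.09) and *Cd200r1* (0.64 and −0.77). They were picked from the lists for opposite directions, with intervals clear of equality in both libraries and a minimum size of ratio. Of 5913 genes, which leave out 1 counted gene with a repeated symbol, 1685 were above the cytokine-negative cells in both libraries and 1236 below. The other genes did not share a direction, so unlike directions were common. With 1 library per genotype, the difference between the libraries was not tested for any of the 11 genes. The 5 markers of regulatory T cells summed to 892 CPM in members and 980 CPM in cytokine-negative cells of the library labelled WT. In the library labelled dKO they summed to 1910 and 4800 CPM. The part of regulatory T cells in the values of the 11 genes was not tested.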

How the results depend on the processing

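No paired analysis was possible because each genotype is 1 library. Of 126 recomputed counts and shares, 76 kept to within 1.5 times the count or within the interval of the share, whichever genes the counts held, and 50 moved. The cause was not tested where the alternative's own construction (fewer cells or genes, another threshold) does not give it. Removal of invariant receptors, means of per-cell CPM, TMM scaling and the deposited clonotype numbers moved none of them. The removals of *Gzmk* cells, of class II cells, of *Ikzf2* or *Ctla4* cells and of shared barcodes were chosen after seeing the data.

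Members over cytokine-negative cells had 25 higher and 10 lower genes. The higher ones numbered 16 with gates on cells thinned to 1000 UMIs, 14 with 1 cell per clonotype, 71 at 1.5-fold, 98 with a minimum of 10 UMIs and 16 without *Ikzf2* or *Ctla4* cells and clonotypes of *Foxp3* cells. The lower ones numbered 26 with thinned gates, 16 with at least 2 UMIs of *Fasl* and *Klrk1*, 18 without doublets, 32 at 1.5-fold, 102 with a minimum of 10 UMIs and 26 without *Ikzf2* or *Ctla4* cells. A like count did not mean the same genes. Of the 25, 14 were among those higher with thinned gates, 8 with 1 cell per clonotype, 11 without *Ikzf2* or *Ctla4* cells and 15 among cells with a β chain. Of the 10, 4, 0, 6 and 6 were among the 26, 7, 26 and 13 lower genes of these settings, 6 with at least 2 UMIs and 9 without doublets. *Slamf7* of the library labelled dKO was at −0.33 with 1 cell per clonotype and *P4ha1* at 0.06 without *Ikzf2* or *Ctla4* cells.

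Against Ifng cells, where 0 were higher and 3 lower, 3 were higher with thinned gates, 1 with at least 2 UMIs, 5 at 1.5-fold and 8 with a minimum of 10 UMIs. Lower were 1 with thinned gates, 0 among cells with a β chain, 0 with 1 cell per clonotype, 18 at 1.5-fold and 15 with a minimum of 10 UMIs. *Ccr7* of the library labelled dKO was at −0.41 with at least 2 UMIs. With 1 cell per clonotype, *Pja1* of the library labelled WT was at −0.02 and *Hsph1* of the library labelled dKO at 0.03.

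Klrk1-only over Fasl-only cells had 11 higher and 2 lower genes. Higher were 7 with thinned gates, 0 among cells with a β chain, 5 without *Cd8a*, *Cd8b1*, *Trdc* or *Tyrobp* cells, 1 with 1 cell per clonotype and 5 without class II cells. Lower were 7 without doublets, 5 among cells with a β chain, 6 without *Cd8a*, *Cd8b1*, *Trdc* or *Tyrobp* cells and 0 with 1 cell per clonotype. The class II genes turned direction. Among cells with a β chain of the library labelled dKO, *H2-Aa* was at −1.66, *H2-Eb1* at −0.86, *Cd74* at −1.49 and *H2-Ab1* at −1.24. Without *Cd8a*, *Cd8b1*, *Trdc* or *Tyrobp* cells in the library labelled WT, *H2-Aa* was at −0.58, *H2-Eb1* at −0.58 and *H2-Ab1* at −0.17. Without class II cells, *H2-Aa* was at −0.14 and *H2-Eb1* at −0.99 in the library labelled WT, and *H2-Aa* at −0.79 and *H2-Ab1* at −0.09 in the library labelled dKO. With 1 cell per clonotype in the library labelled dKO, *Cd74* was at −1.04, *H2-Ab1* at −0.07, *Otub1* at 0.83 and *Fam169b* at 0.93.

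Between the members of the 2 libraries, with 84 higher and 169 lower genes, the higher ones numbered 37 with at least 2 UMIs, 54 among cells with a β chain, 38 with 1 cell per clonotype, 335 at 1.5-fold, 321 with a minimum of 10 UMIs and 55 without *Gzmk* cells. The lower ones numbered 106 with 1 cell per clonotype, 720 at 1.5-fold and 797 with a minimum of 10 UMIs. *Gzmc* was at −0.53 with thinned gates and −0.01 with 1 cell per clonotype, and *Eomes* at −1.42 with 1 cell per clonotype and −0.17 without *Gzmk* cells.

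Members were 8.56% and 3.36% of the cells, and 6.82% and 2.77% with thinned gates, 2.54% and 0.785% with at least 2 UMIs, 10.9% and 5.03% of cells with a β chain and 10.5% and 4.61% without *Cd8a*, *Cd8b1*, *Trdc* or *Tyrobp* cells. The library labelled WT was above the library labelled dKO in each. Klrk1-only cells were 26.2% and 29.3% of members with thinned gates. In the library labelled WT, 42.7% of members lay in clonotypes that hold Ifng cells where the β chain alone defined them, and in the library labelled dKO 22.7% of members with at least 2 UMIs lay in clonotypes of 2 or more cells. Most members rest on 1 UMI of *Fasl* or *Klrk1*, a β chain was read in 41.5% and 35.2% of them, and no value here holds the spread between mice.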
